A study of Bos grunniens with 36 samples.

Results

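The late lactation step of the yak mammary gland is described here as the change in mRNA between day +180 and day +240 after calving in the same 4 animals. Its members are 8 arrays of the 36 in the series, the 4 whose sample titles give day +240 and the 4 whose titles give day +180, paired by yak number. The yak (Bos grunniens) is a bovine of high altitudes, and each of the 4 females gave mammary parenchyma by biopsy at 9 days from 30 days before to 240 days after calving. The side of the gland, left or right, alternated between biopsies, and which side an array came from was not used here. Per the labels' protocol fat and connective tissue were dissected away before freezing. RNA was labelled with 1 dye and hybridised to a cattle gene expression array, so each value is the signal of yak RNA on a probe designed for cattle. Both days share the animals, the sex and the tissue, and the labels name no treatment; the age of the animals is not given in the sources used here. The question that the step addresses, as the design text puts it, is what differs between subsequent time points.

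In lactation the alveolar epithelium takes up glucose, amino acids and fatty acids from blood and secretes caseins, whey proteins, lactose and fat globules. Late in lactation secretory cells are lost, milk yield falls and the gland approaches involution, in which matrix proteases, lysosomal proteins and immune cells become prominent. In pieces of whole tissue, fewer cells of a type and less RNA per cell of that type cannot be told apart.

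Each value below is a log2 signal relative to the 75th percentile of its own array, so 0 is the level of a bright probe and 1 unit is a 2-fold difference. After 1 probe was kept per gene, 20108 genes were tested, of which 12956 carry a gene symbol. The 75th percentile of raw brightness was 3118, 1780, 1528 and 4364 units at day +180 in yaks 1 to 4, and 3884, 1538, 1272 and 1424 units at day +240. Between 68.6% and 80.8% of the spots of these 8 arrays were well above background. By the labels of the value table every slide held the arrays of 1 day only. Slide and day therefore cannot be told apart in any result below that follows those labels. The labels of the value table and of the scanner files disagree about which array is which. None of the 36 columns of the table holds the values of the scanner file deposited under the same sample, and for 9 of them the matching file is labelled with the same day. By the scanner files' own labels a slide held more than 1 day. Days and yaks follow the table, and by the scanner files' own labels 1002 genes were called between these days with 3 in common with the calls given here.

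Several arrays stood apart. The mean of the 4 casein genes was 0.36 in yak 4 at day +180 and 4.62 in yak 1 at day +240, against 6.57 to 8.27 in the other yaks at day +180 and 7.56 to 8.63 in the other yaks at day +240. Yak 4 was as low, 0.86, at day +120. These are the 3 arrays left out below as low in casein mRNA, picked after the values were seen. No single cutoff on casein level gives them: yak 3 at day +30 was at 4.34, below yak 1 at day +240, and was kept. The array of yak 4 at day +180 and that of yak 1 at day +240 correlated with each other across genes (Pearson's r = 0.962), more closely than either did with the other day of its own yak (r = 0.892 and 0.930; a description across genes, which are not replicates). Without the 3 arrays low in casein mRNA, 14 of the 19 called genes named below were still called, and the values of the 5 others stand beside them.

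Marker genes of the gland were detected on all arrays of both days. All 8 milk protein genes and all 15 luminal epithelium genes tested were well above background on each of the 8 arrays, and so were the 13 myoepithelium and 14 fibroblast and collagen genes. Among all genes tested the share above background on all 8 arrays was 79.9%. It was 8 of 10 for adipocyte genes, 7 of 10 for skeletal muscle genes and 3 of 6 for red cell genes. For endothelial genes it was 13 of 14, for macrophage genes 10 of 11 and for T and NK cell genes 17 of 19. Being above background therefore does not by itself identify the tissue.

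At day +240, 145 genes were higher and 16 were lower than at day +180, out of 20108 tested (0.721% and 0.0796%, limma with yak as a random block over all 36 arrays, Benjamini-Hochberg adjusted p under 0.05). The rises ranged from 0.55 to 2.84 and the falls from -1.71 to -0.64 on the log2 scale. Among the rises were MRPS9 of the mitochondrial ribosome, RAB39B of vesicle traffic and TNNT3 of fast muscle, among the falls ZNHIT3 of small nucleolar ribonucleoprotein assembly, the exoribonuclease XRN2 and SF3A3 of the spliceosome, and none of the 8 milk protein genes was in either group. The median difference of all genes was 0.05. In 126 of the 145 rises and 13 of the 16 falls the 4 values of one day lay wholly beyond the 4 of the other, as did 2.15% of all genes upward and 0.532% downward. The difference went the same way in all 4 yaks for 141 of the rises and 15 of the falls, against 10.7% of all genes that were higher and 5.9% that were lower in all 4. These counts share the contrast that made the calls and lend it no support. The number of calls rested on the pooled fit and on single animals. The 8 arrays fitted alone gave 0 calls with yak as a fixed block and 0 without it. In these 2 fits 1123 and 726 of 20108 genes were at unadjusted p under 0.05 (limma), against 2707 in the pooled fit. Such a p is reached by about 1 gene in 20 where nothing changes. With yak 1, 2, 3 or 4 left out the calls were 133, 17, 13 or 3. Leaving out the array of yak 4 at day +180 gave 61 calls, and leaving out that of yak 1 at day +240 gave 530. Without the 3 arrays low in casein mRNA 187 genes were called (0.93%), 109 of them among the 161. Scaling set the split as well: 33 higher and 13 lower after quantile normalization, 43 and 11 with arrays centred on their medians, and 1 call, MRPS9, after normexp background correction.

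The probes of 6 of the called genes are shown for their base composition. Each line gives the first 30 bases of a 60-base probe, 5′ to 3′, as printed in the array's own files, with G and C in capitals; the 3 largest rises come first and the 3 largest falls follow, in each case among the called genes with a symbol that moved alike in all 4 yaks and were above background on 3 of the 4 arrays of the higher day.
RGR: tCtCattGCCaaGGCaGtaCCCaCaGtCaa
RPL10L: GGaGtCaaatatGtCCCCaaCCGtGGaCCt
FUT7: CttCtatCtGtCCttCGaGaaCtCCGaGCa
ZNHIT3: CCCGtatGGaGaGaaCtCGatGttCaaatG
XRN2: aaCCCtCaGCtaaCtaGaGtGtatattGtt
KATNAL1: tGGtaGaatttGGatCtGCttGaatttCtG
By the array design's annotation on the cattle build UMD 3.1, these probes lie at chr28:39541538-39541597 (plus strand) for RGR, chr10:39735444-39735503 (minus strand) for RPL10L, chr11:106202399-106202458 (plus) for FUT7, chr19:13157391-13157450 (plus) for ZNHIT3, chr13:41025102-41025161 (plus) for XRN2 and chr12:30558102-30558161 (plus) for KATNAL1. Whether a position is coding or untranslated was not looked up. Over all 60 bases, G and C made up 55% of the probes of RGR, RPL10L and FUT7, and 35% of those of ZNHIT3, XRN2 and KATNAL1.

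Base composition separated the calls as a whole. The median probe of a gene that rose held 55% G and C, that of a gene that fell 36.7%, and that of all genes tested 43.3%. Probes with 50% or more G and C made up 62.8% of the rises (91 of 145), 21.9% of all genes and 0 of the 16 falls. The same trend ran over all genes in yaks 2, 3 and 4. In yak 4 the median difference climbed from -0.20 for probes under 40% through 0.14 and 0.42 to 0.68 for probes of 60% and over. In yak 2 it went from -0.12 to 0.18, and in yak 3 from 0.08 to 0.26. In yak 1 it ran the other way, from 0.36 under 40% to -0.18 between 50% and 60% and -0.13 above. With each column's trend on base composition removed, 144 genes were called, 110 higher and 34 lower, 119 of them among the 161. Of the 19 called genes named here 16 were still called after that step. RGR (2.72, limma adjusted p = 0.0547), RAB39B (1.67, limma adjusted p = 0.0665) and EDNRB (1.47, limma adjusted p = 0.0603) were not.

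**Figure D1:**
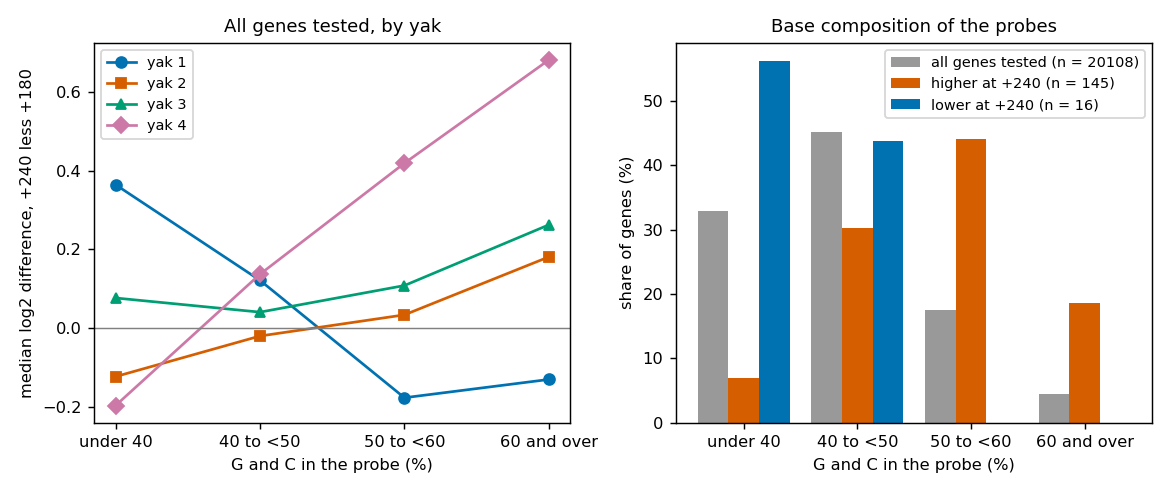
Left, the median log2 difference between day +240 and day +180 of all genes tested, by the G and C content of the probe, with 1 line for each yak; the line of yak 4 climbs from -0.20 to 0.68 and that of yak 1 falls. Right, the share of genes in each class of G and C content among all 20108 genes, the 145 higher and the 16 lower at day +240; no fallen gene has a probe with 50% or more.

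Dim probes were common among the rises. Of the 145 genes that rose, 131 had a mean over all 36 arrays below the 75th percentile of the array (90.3%, against 66.2% of all genes). Above background on no array of day +180 were 23 of the 145 rises and 543 of all 20108 genes. Only a bound can be given for the size of those 23 rises. None of the rises was below background on all arrays of day +240, while 2 of the 16 falls and 150 of all 20108 genes were.

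MRPS9, a protein of the small subunit of the mitochondrial ribosome, is the first of the 10 rises named here. Its values in yaks 1 to 4 were 0.62, -0.38, 0.43 and 0.35 at day +180. They were 1.41, 1.92, 1.79 and 1.94 at day +240. Every animal was higher at day +240 and the groups did not overlap. The difference was 1.51 ± 0.25 (SE, n = 4 yaks, limma adjusted p = 0.00257), called in 16 of 23 alternatives. Every SE of a difference given here comes from the fit to all 36 arrays, with 1 spread per gene over the 9 days. It is not the spread of the 4 differences between paired arrays. Over the 161 called genes this SE averaged 0.24, against 0.31 with the 8 arrays alone and yak as a fixed block. The rise of MRPS9 holds for 1 probe of 3: on the other two, which are dimmer, the differences were -0.0450 and 0.16, and the mean of the probes was not called (0.54, limma adjusted p = 0.137). Over the 9 days the mean of MRPS9 lay at 1.41 before calving at day -30, between 0.55 and 1.09 from day +1 to day +120, at 0.25 at day +180 and at 1.76 at day +240. Day +180 was thus the lowest and day +240 the highest of its 9 daily means.

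The largest rise among the named genes was that of RGR, an opsin of the retinal pigment epithelium. Its values were -5.56, -4.21, -3.29 and -5.90 at day +180 and -4.49, -1.29, -0.45 and -1.36 at day +240. All 4 yaks went up, but yak 1 ended below the day +180 values of yaks 2 and 3, so the groups overlapped, and 2 of the 4 arrays of day +180 were above background. The difference was 2.84 ± 0.70 (SE, n = 4 yaks, limma adjusted p = 0.0462). A dimmer probe of RGR had a difference of -0.67, and the mean of both was not called (1.09, limma adjusted p = 0.292). RPL10L, a retrocopy of the ribosomal protein gene RPL10 that in mice serves the testis, went from -2.58, -1.50, -1.26 and -2.19 to -1.42, 0.14, 0.58 and 0.53. Here too the groups overlapped through yak 1, and the difference was 1.84 ± 0.41 (SE, n = 4 yaks, limma adjusted p = 0.0243). RPL10L is a near copy of RPL10, and signal from either mRNA on this probe cannot be told apart. FUT7, the fucosyltransferase that makes the selectin ligands of white blood cells, went from -5.64, -5.05, -6.08 and -4.98 to -3.96, -4.05, -4.02 and -2.62. The groups of FUT7 did not overlap, though 2 of its 4 arrays at day +180 were above background, and its difference was 1.78 ± 0.30 (SE, n = 4 yaks, limma adjusted p = 0.00312).

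RAB39B, a small GTPase of vesicle traffic, measured -0.89, -2.07, -2.20 and -2.01 at day +180 and -0.20, -0.13, -0.64 and 0.57 at day +240. Yak 1 was already high at day +180 and had the smallest rise, and the gene rose by 1.69 ± 0.41 (limma adjusted p = 0.0381). RAB39B lost its call without the 3 arrays low in casein mRNA (1.59, limma adjusted p = 0.0918). PIK3R6, a regulatory subunit of the phosphoinositide 3-kinase of white blood cells, measured -2.65, -3.12, -3.08 and -4.05 and then -2.64, -1.32, -1.80 and -1.16. In yak 1 the value hardly moved, and the fitted rise was 1.50 ± 0.34 (limma adjusted p = 0.0256). The other probe of PIK3R6 had a difference of -0.19, and the mean of both was not called (0.66, limma adjusted p = 0.167). EDNRB, a receptor for endothelins, measured -5.13, -3.89, -3.52 and -6.44 and then lay between -3.32 and -3.22 in all 4 yaks. The rise of EDNRB, 1.49 ± 0.36 (limma adjusted p = 0.0401), was largest in the yaks that had been lowest, and 2 of its arrays at day +180 were above background. It was 0.88 and not called without the 3 arrays low in casein mRNA (limma adjusted p = 0.129).

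DPEP3, a membrane dipeptidase, measured -4.08, -3.91, -4.21 and -4.37 and then -3.41, -2.88, -2.30 and -2.15. The groups lay apart, with a rise of 1.46 ± 0.31 (limma adjusted p = 0.0179). OTOP3, a proton channel of the otopetrin family, measured -7.02, -5.40, -6.42 and -7.08 and then -5.07, -4.66, -5.01 and -5.07. It rose by 1.53 ± 0.30 (limma adjusted p = 0.00935), and 1 of the 4 arrays of day +180 was above background. SLC25A45, a carrier of the mitochondrial inner membrane, exceeded background on 0 arrays of day +180 and 3 arrays of day +240, with measured means of -7.32 and -5.78. The test called SLC25A45 (limma adjusted p = 0.00228), but against the dimmest signal that counted as above background no fold over 1 was left. The 10 rises named here were called in the same direction in 6 to 16 of 22 or 23 alternatives.

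The falls were fewer, and 6 are named here. ZNHIT3, which takes part in the assembly of small nucleolar ribonucleoproteins, measured 0.25, 0.38, 0.19 and 0.32 at day +180. It measured -0.58, -0.98, -0.71 and -1.58 at day +240. The 4 values of day +180 had an SD of 0.08 and lay above all values of day +240. The fall was -1.25 ± 0.19 (SE, n = 4 yaks, limma adjusted p = 0.00152), called in 17 of 23 alternatives. XRN2, a nuclear exoribonuclease that acts at the end of transcription, went from 0.67, 0.59, 1.03 and 0.82 to -0.43, -0.35, 0.05 and -0.21. Its groups did not overlap, and it fell with a difference of -1.01 ± 0.17 (limma adjusted p = 0.00312). The 4 other probes of XRN2 had differences of -0.49 to 0.25, and the mean of its probes was not called (-0.34, limma adjusted p = 0.445). SF3A3, a part of the U2 snRNP of the spliceosome, went from -0.53, -0.64, -1.14 and -0.66 to -1.0, -1.68, -1.35 and -2.32. All 4 yaks were lower, but the day +180 value of yak 3 lay below the day +240 value of yak 1, and the difference was -0.85 ± 0.19 (limma adjusted p = 0.0233).

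KATNAL1, a catalytic subunit of the microtubule-severing enzyme katanin, went from -4.69, -4.92, -5.41 and -4.69 to -5.46, -6.53, -5.93 and -5.69 (-0.97 ± 0.20, limma adjusted p = 0.0145). GLO1, which detoxifies methylglyoxal, a by-product of glycolysis, went from 0.72, 1.13, 0.69 and 0.75 to 0.06, 0.05, 0.33 and 0.29 (-0.64 ± 0.16, limma adjusted p = 0.0424). ZFAND3, a zinc finger protein, went from 0.58, 0.43, 0.75 and 0.75 to -0.15, -0.55, 0.32 and -0.24 (-0.78 ± 0.18, limma adjusted p = 0.0303). In these 3 genes the days did not overlap. GLO1 (-0.64, limma adjusted p = 0.0605) and ZFAND3 (-0.75, limma adjusted p = 0.0872) were not called without the 3 arrays low in casein mRNA. Nor were the means of their probes, at -0.13 for GLO1 (limma adjusted p = 0.75), whose 2 dimmer probes had differences of 0.0577 and 0.18, and at -0.64 for ZFAND3 (limma adjusted p = 0.218). No more than 6 falls with a symbol met the rule for named genes.

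**Figure D2:**
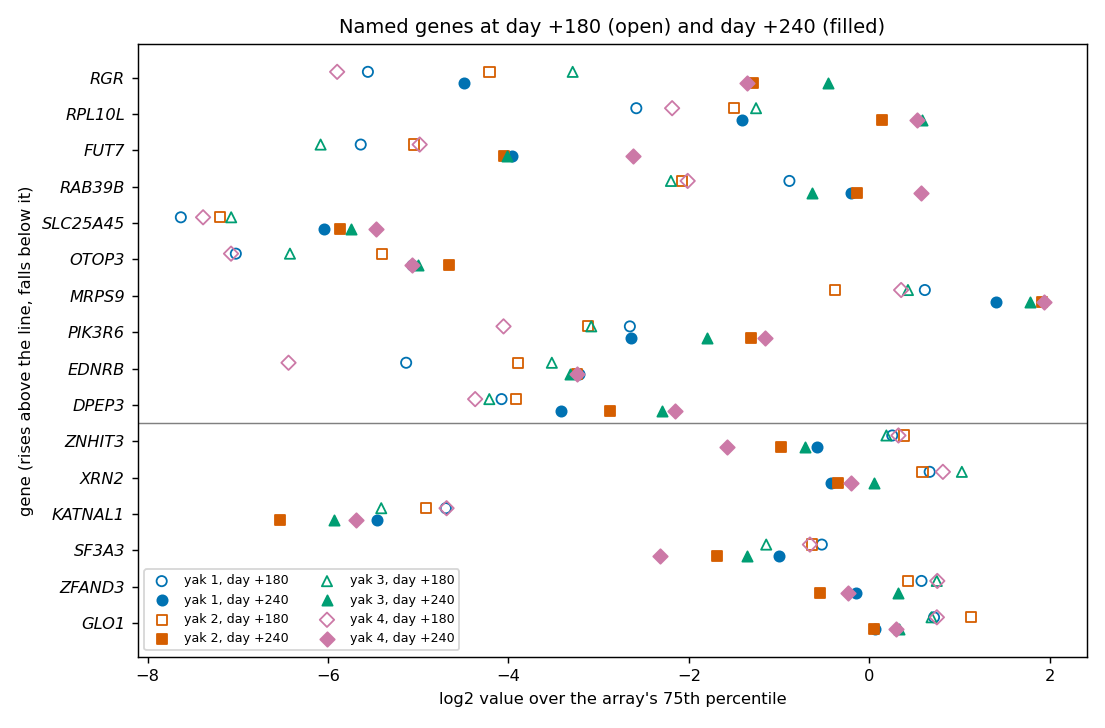
Log2 value over the array's 75th percentile of the 10 named rises and the 6 named falls, in each yak at day +180 (open) and day +240 (filled). The groups overlap for RGR, RPL10L and SF3A3 and for no other gene shown; MRPS9 lies between -0.38 and 0.62 at day +180 and between 1.41 and 1.94 at day +240.

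The calls stood out within the 9-day course at both of their ends. Of the 145 rises, 98 had their highest daily mean at day +240 (67.6%, against 9.02% of all genes) and 68 had their lowest at day +180 (46.9%, against 18.4%). Of the 16 falls, 12 were lowest at day +240 (against 1379 of all 20108 genes) and 9 were highest at day +180 (against 3513 of 20108). FUT7 had daily means from -5.24 to -3.95 up to day +120, then -5.44 and -3.66. XRN2 lay between 0.44 and 1.07 up to day +180 and at -0.23 at day +240, its lowest day. SF3A3 was at -1.44 to -0.95 up to day +120, at -0.74 at day +180 and at -1.59 at day +240. These shares use the values behind the calls and are a description.

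**Figure D3:**
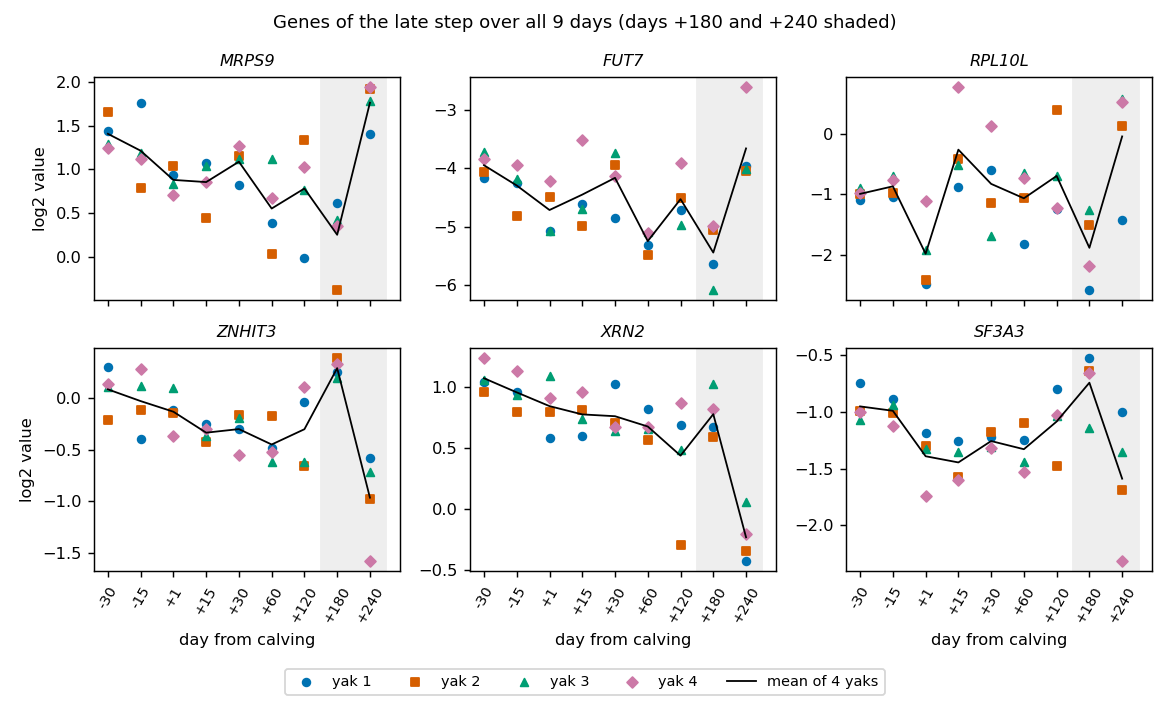
Log2 values of 3 risen genes (MRPS9, FUT7, RPL10L) and 3 fallen genes (ZNHIT3, XRN2, SF3A3) on all 9 days from day -30 to day +240, with a point for each yak and a line through the daily means. Days +180 and +240 are shaded; MRPS9 is lowest at day +180 and highest at day +240.

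None of the 8 milk protein genes was called (limma, 0 at unadjusted p under 0.05). Over all genes tested, 2707 of 20108 were under that unadjusted p (13.5%), which is the background for each such count below. CSN1S1, the alpha-s1 casein gene, measured 6.54, 8.33, 8.52 and -0.63 in yaks 1 to 4 at day +180. It measured 4.46, 8.80, 8.65 and 7.61 at day +240. Yaks 2 and 3 were level and high on both days, yak 1 came down and yak 4 went up from a very low value. The fitted difference was 1.69 ± 1.39 (SE, n = 4 yaks, limma adjusted p = 0.596). CSN2, beta-casein, went from 6.65, 7.44, 8.40 and -1.01 to 4.51, 8.46, 8.11 and 7.27 (1.72 ± 1.48, limma adjusted p = 0.615). CSN1S2, alpha-s2 casein, went from 5.49, 7.55, 7.63 and -0.65 to 3.17, 8.47, 8.55 and 7.50 (1.92 ± 1.45, limma adjusted p = 0.563). In both, as in CSN1S1, yak 1 came down and yak 4 went up from a very low value. Yaks 2 and 3 were high on both days but less level, with differences of 1.02 and -0.29 in CSN2 and of 0.91 and 0.92 in CSN1S2. CSN3, kappa-casein, which caps the casein micelle, was less far apart, at 7.62, 8.39, 8.52 and 3.73 and then 6.33, 8.77, 8.44 and 7.87 (0.79 ± 0.80, limma adjusted p = 0.676).

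Whey proteins showed the same animals apart. LALBA, the alpha-lactalbumin that turns galactosyltransferase into lactose synthase, measured 4.51, 6.89, 7.26 and -2.77 at day +180 and 1.38, 8.17, 7.69 and 6.97 at day +240 (2.08 ± 1.90, limma adjusted p = 0.638). PAEP, beta-lactoglobulin, measured 6.83, 6.91, 7.98 and 0.87 and then 5.52, 8.34, 7.45 and 6.79 (1.38 ± 1.09, limma adjusted p = 0.582). LPO, the antibacterial lactoperoxidase, measured 1.29, 3.83, 4.63 and -5.58 and then -4.11, 4.32, 4.77 and 3.2 (1.00 ± 1.98, limma adjusted p = 0.846). For all of these the days overlapped. LTF, the iron-binding lactoferrin, followed other animals, at 6.17, 1.14, 6.21 and 4.91 and then 5.29, 3.01, 6.83 and 3.85 (0.14, limma adjusted p = 0.955), with yak 2 and not yak 4 the lowest on both days. Over the 8 milk protein genes the median difference was 1.53, made of -2.11 in yak 1, 0.97 in yak 2, 0.14 in yak 3 and 8.19 in yak 4. Without the 3 arrays low in casein mRNA the median was 0.48 and 0 genes were called. Without yak 4 at every day, the fitted differences of the caseins, LALBA, PAEP and LPO all turned negative, at -0.49 for CSN1S1 and -1.59 for LPO.

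**Figure D4:**
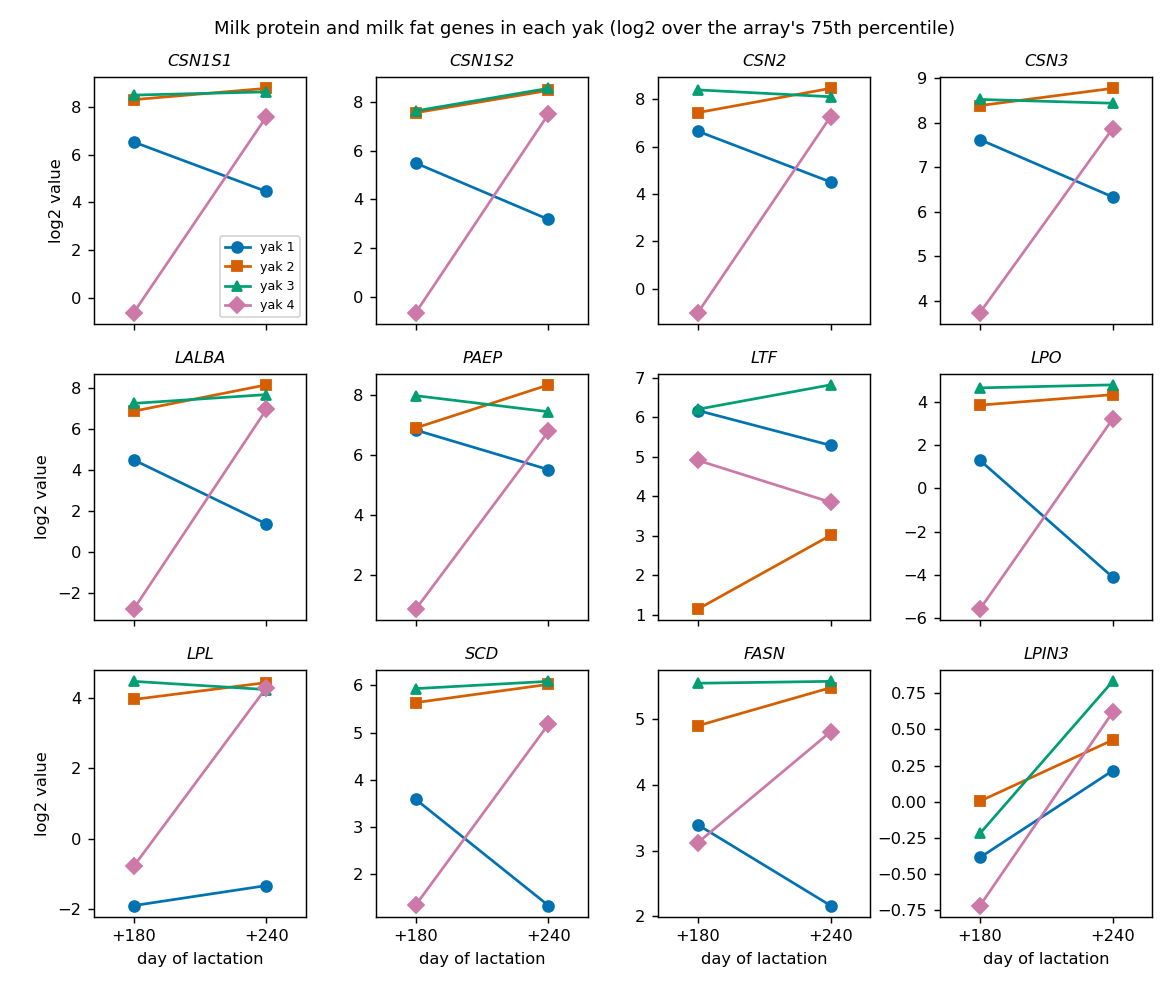
Log2 value over the array's 75th percentile of 8 milk protein genes and 4 genes of milk fat synthesis at day +180 and day +240, with 1 line for each yak. In the caseins, LALBA, PAEP and LPO, yak 4 climbs from the lowest value of day +180 (-0.63 for CSN1S1) and yak 1 comes down, while yaks 2 and 3 are high on both days; each panel has its own vertical axis.

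Milk fat genes gave 0 calls in 19 genes of triacylglycerol synthesis and the fat globule, in 16 of fatty acid synthesis and in 15 of fatty acid uptake (limma, 1, 3 and 0 genes at unadjusted p under 0.05). Outside the muscle and ribosomal lists described below, an ordinary linear model with yak as a factor likewise called 0 genes of every list. LPL, the lipoprotein lipase that frees fatty acids from blood fat, measured -1.92, 3.97, 4.49 and -0.79 and then -1.34, 4.45, 4.25 and 4.31 (1.48 ± 1.38, limma adjusted p = 0.646). Yak 1 was low on both days, unlike in the caseins. SCD, which makes oleic from stearic acid, measured 3.58, 5.64, 5.93 and 1.34 and then 1.33, 6.02, 6.09 and 5.18 (0.53 ± 0.99, limma adjusted p = 0.834). FASN, the fatty acid synthase, measured 3.39, 4.90, 5.55 and 3.12 and then 2.16, 5.48, 5.58 and 4.81 (0.27 ± 0.70, limma adjusted p = 0.891). Yaks 2 and 3 were again level at high values in SCD and FASN.

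Some fat genes moved less between animals. LPIN3, a phosphatidate phosphatase on the way to triacylglycerol, went from -0.38, 0.01, -0.22 and -0.72 to 0.22, 0.43, 0.83 and 0.62. Its groups did not overlap, yet the difference of 0.85 ± 0.24 did not pass the test over all genes (limma adjusted p = 0.106). DGAT1, which adds the last fatty acid of a triacylglycerol, was lower in all 4 yaks with overlapping groups (-0.45 ± 0.29, limma adjusted p = 0.489), and AGPAT2, an earlier acyltransferase, was lower in 3 (-0.93 ± 0.57, limma adjusted p = 0.467). FADS2, the delta-6 desaturase, measured -1.26, -1.11, -1.52 and -1.03 and then -0.53, -3.36, -2.67 and -2.68. Yaks 2, 3 and 4 were lower and yak 1 was higher (-1.08 ± 0.43, limma adjusted p = 0.278), and without the 3 arrays low in casein mRNA FADS2 was called at -1.61 (limma adjusted p = 0.0401, against 0.0159 to 0.969 over all alternatives). ACLY, which supplies acetyl-CoA, was at 0.76 ± 0.43 and then 0.16 ± 0.49 (SD, n = 4 yaks; -0.60, limma adjusted p = 0.28), and ME1, a source of NADPH, at -2.70 ± 0.57 and then -3.30 ± 0.51 (-0.60, limma adjusted p = 0.341).

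The 11 genes of glucose use and lactose gave 0 calls (limma, 2 at unadjusted p under 0.05). HK1, a hexokinase, was lower in all 4 yaks, from 2.95, 2.73, 2.36 and 2.33 to 2.55, 1.52, 2.33 and 1.57 (-0.60 ± 0.22, limma adjusted p = 0.236). SLC2A4, the insulin-regulated glucose transporter, was lower in 3 (-1.20 ± 0.46, limma adjusted p = 0.256). UGP2, which makes UDP-glucose, was higher in yaks 2, 3 and 4 and lower in yak 1 (1.02 ± 0.55, limma adjusted p = 0.414). Of 14 genes of prolactin and growth hormone signalling, 0 were called (limma, 1 at unadjusted p under 0.05). SOCS2, an inhibitor of growth hormone signalling, went from -1.27, -0.76, -0.53 and -0.86 to 0.25, -0.04, 0.18 and -0.23. Its groups lay apart, with a difference of 0.89 ± 0.25 that did not pass the test (limma adjusted p = 0.094). SOCS3, a related inhibitor, was higher in 3 of 4 yaks (0.62 ± 0.33, limma adjusted p = 0.408), and INSR, the insulin receptor, was higher in 1 (-0.40 ± 0.23, limma adjusted p = 0.43). The probe of SOCS3 was above background on 1 array of day +180 and 4 of day +240.

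The 26 genes of involution and apoptosis gave 0 calls, as did the 18 lysosomal genes and the 18 of matrix remodelling (limma, 5, 2 and 2 genes at unadjusted p under 0.05). Their median differences were -0.20, -0.27 and -0.40, beside 0.05 over all genes. In matrix remodelling the yaks stood at -0.54, -0.69, 0.01 and -0.47. PLAT, the tissue plasminogen activator, was lower in all 4 animals, from 0.57, 1.28, -0.04 and 0.48 to 0.02, -0.26, -0.36 and -0.31 (-0.80 ± 0.32, limma adjusted p = 0.278). TIMP3, an inhibitor of matrix proteases, was lower in 2 (-0.79 ± 0.40, limma adjusted p = 0.384).

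**Figure D5:**
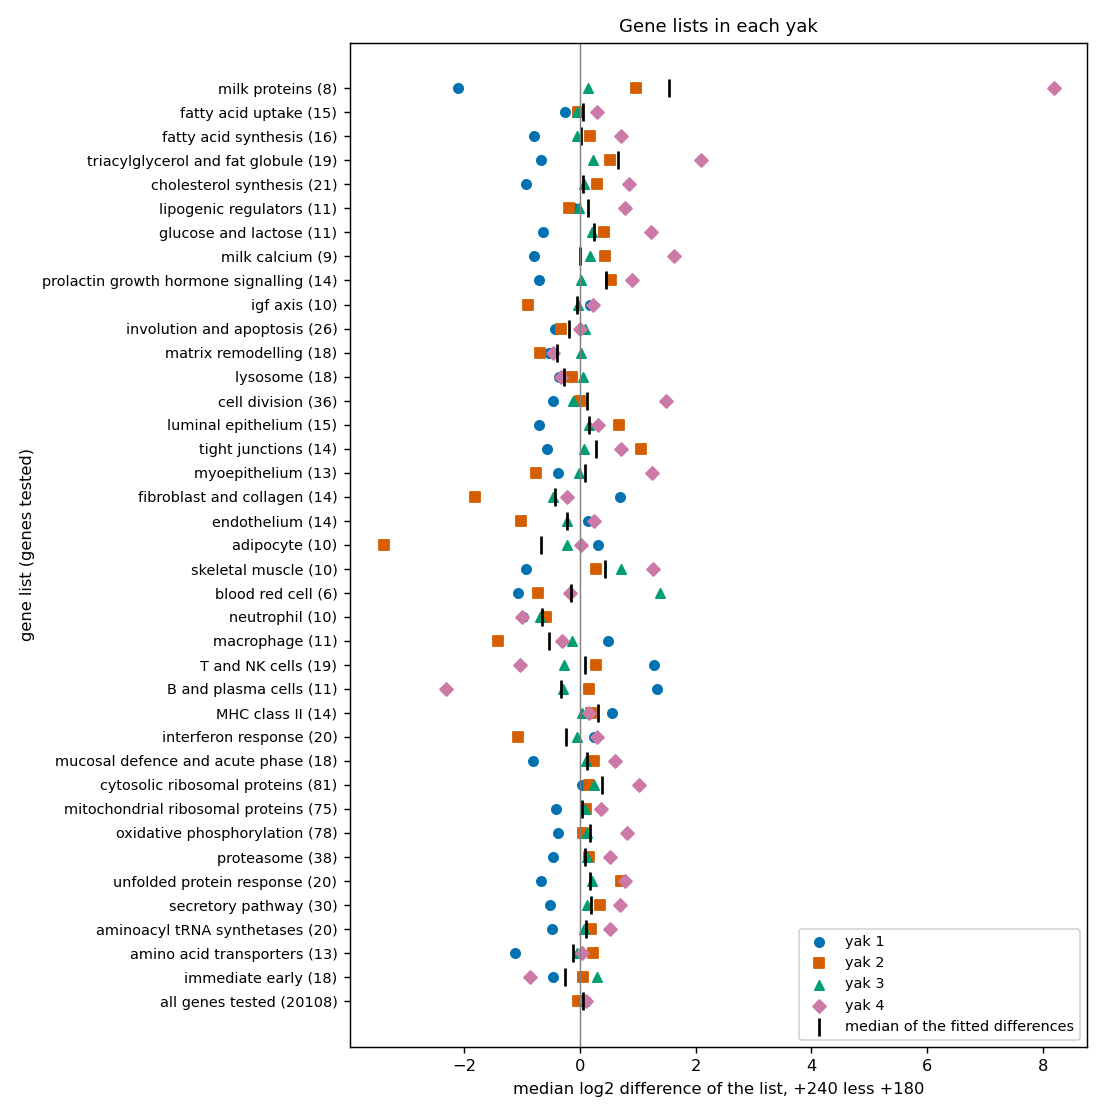
Median log2 difference between day +240 and day +180 of each of 38 gene lists and of all genes tested, with a point for each yak, a bar for the median of the fitted differences, and the number of genes tested in brackets. Milk proteins spread from -2.11 in yak 1 to 8.19 in yak 4, and yak 2 lies far below the others for the adipocyte list, at -3.39.

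Markers of fat and connective tissue gave 0 calls (limma, 2 of 10 adipocyte, 1 of 14 fibroblast and collagen and 1 of 14 endothelial genes at unadjusted p under 0.05), and they set single animals apart. The 10 adipocyte genes had median differences of 0.31, -3.39, -0.23 and 0.02 in yaks 1 to 4. Of these genes 8, 2, 5 and 5 were higher in yaks 1 to 4. In all 4 yaks 2 were higher and 0 lower (20% and 0%, against 10.7% and 5.9% of all genes). The 3 members named here are those with the smallest p, and their fitted differences were negative. PLIN1, which coats the fat droplet, measured -3.68, 2.79, -0.22 and 0.34 at day +180 and -3.40, -3.68, -1.19 and -2.87 at day +240 (-2.59 ± 1.10, limma adjusted p = 0.306). Yak 2 at day +180 was the highest array for it, and also for CIDEC, another droplet protein (3.39), and RBP4, the retinol carrier (1.58). CIDEC and RBP4 had fitted differences of -1.87 and -1.45 (limma adjusted p = 0.448 and 0.319). The mean level of the adipocyte list was 1.48 on that array and between -1.64 and -0.25 on the 7 others. Fibroblast and collagen genes followed, with medians of 0.69, -1.81, -0.46 and -0.22. FN1, fibronectin, went from 3.64, 4.02, 1.65 and 3.40 to 3.00, 0.62, 1.09 and 3.62 (-1.10 ± 0.52, limma adjusted p = 0.356). COL6A1 and COL6A2, chains of type VI collagen, were each higher in yak 1 and lower in the other yaks (-0.65 and -0.96, limma adjusted p = 0.419 and 0.488). The 14 endothelial genes stood at 0.13, -1.02, -0.22 and 0.24 in the 4 yaks.

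Among immune cells, 5 of 10 neutrophil genes were lower in all 4 yaks (50%, against 5.9% of all genes). The test called 0 of the 10 (limma, 1 at unadjusted p under 0.05). The list's median was -0.66, from -1.01 to -0.59 by animal, and -0.19 after normexp background correction. CATHL4, a cathelicidin of neutrophil granules, went from -2.07, -2.19, -5.01 and -3.79 to -4.46, -5.71, -5.78 and -5.22 (-2.03 ± 0.77, limma adjusted p = 0.25). S100A8, a calcium-binding protein of neutrophils, went from -1.07, -0.91, 0.42 and -1.13 to -2.79, -2.82, -0.62 and -3.29 (-1.71 ± 1.11, limma adjusted p = 0.494). CATHL6, a related cathelicidin, was higher in 3 of 4 yaks (1.01 ± 0.60, limma adjusted p = 0.461). The 11 macrophage genes had 0 calls (limma, 0 at unadjusted p under 0.05) and a median of -0.54, and by animal 0.49, -1.42, -0.14 and -0.32. CSF1R, the receptor for macrophage growth factor, had a difference of -0.54 ± 0.27, C1QA, of complement, -0.60 ± 0.35, and FCER1G, an Fc receptor chain, -0.57 ± 0.40 (limma adjusted p = 0.374, 0.449 and 0.524).

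Lymphocyte markers moved in opposite ways in yaks 1 and 4. The 19 genes of T and NK cells had medians of 1.29, 0.27, -0.27 and -1.04, and the 11 of B and plasma cells 1.32, 0.16, -0.29 and -2.31, with 0 calls in either list (limma, 1 and 2 genes at unadjusted p under 0.05). The mean level of the T and NK list was 0.07 on the array of yak 4 at day +180 and -0.33 on that of yak 1 at day +240, against -1.93 to -0.85 on the 6 others. That of the B and plasma cell list was -2.62, -1.69, -0.82 and 0.08 in yaks 1 to 4 at day +180 and -1.16, -1.81, -1.10 and -2.09 at day +240, so the array of yak 1 at day +240 lay among the others. Without the 3 arrays low in casein mRNA the fitted medians were 0.20 for T and NK cells and 0.11 for B and plasma cells, with 0 calls in either. CD3G, of the T cell receptor complex, measured -2.68, -1.71, -1.58 and 0.70 and then 0.07, -0.77, -1.79 and -0.25 (0.63 ± 0.50, limma adjusted p = 0.577). KLRB1, a receptor of NK cells, measured -3.18 in yak 4 at day +180 and -3.41 in yak 1 at day +240, and was at -4.22 or below on the other 6 arrays (1.00 ± 0.72, limma adjusted p = 0.537). The probe of KLRB1 was above background on 1 array of day +180 and 3 of day +240. CD6, a T cell surface protein, was higher in 3 of 4 yaks (0.48 ± 0.18, limma adjusted p = 0.238). Of the B cell genes, CD79B, of the B cell receptor, had a difference of -2.30 ± 0.96 (limma adjusted p = 0.299). Its probe was above background on 3 arrays of day +180 and 1 of day +240. BLK, a kinase of the B cell receptor, had a difference of -0.76 ± 0.47, and PAX5, a B cell transcription factor, 1.04 ± 0.40 (limma adjusted p = 0.474 and 0.254). The part of these cells in the other differences was not tested.

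MHC class II genes, which present antigen, were higher in all 4 yaks for 5 of 14 members (35.7%, against 10.7% of all genes). The list had 0 calls (limma, 1 at unadjusted p under 0.05) and a median of 0.31. BOLA-DRA, the class II alpha chain, went from 3.78, 3.32, 3.74 and 3.93 to 4.36, 4.11, 3.87 and 4.76 (0.58 ± 0.20, limma adjusted p = 0.198). BOLA-DMA, which loads peptides, was higher in all 4 as well (0.38 ± 0.21, limma adjusted p = 0.429). CIITA, the activator of class II genes, was lower in all 4 (-0.56 ± 0.36, limma adjusted p = 0.486).

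The 10 skeletal muscle genes held 2 of the 145 rises, where 0.721% of all genes tested rose. The list's median was 0.44. TNNT3, fast muscle troponin T, went from -0.54, -0.32, 0.32 and -0.21 to 0.55, 0.86, 1.07 and 1.31. Its groups did not overlap, and it rose by 1.14 ± 0.20 (SE, n = 4 yaks, limma adjusted p = 0.00334). MYLPF, a light chain of fast myosin, went from -1.54, -1.45, -1.87 and -1.86 to -1.12, -1.08, -1.14 and -0.72. It rose by 0.66 ± 0.16 (limma adjusted p = 0.044). Without the 3 arrays low in casein mRNA MYLPF was not called (0.62, limma adjusted p = 0.0993) and the list's median was 0.28. The other 4 probes of TNNT3, all dimmer, had differences of -0.48 to 0.59, and the mean of its probes was not called (0.18, limma adjusted p = 0.847). In that setting MYLPF, which has 1 probe, was at an adjusted p of 0.0545 (limma). Over the whole list 4, 6, 9 and 9 of the 10 genes were higher in yaks 1 to 4. In all 4 yaks 3 were higher (30%, against 10.7% of all genes). ACTN3, a fast fibre actinin, had a difference of -0.81 ± 0.38 (limma adjusted p = 0.352).

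Cell division genes gave 0 calls in 36 (limma, 2 at unadjusted p under 0.05), and 1 array led them. Their median differences were -0.46, -0.01, -0.13 and 1.49 in yaks 1 to 4. KIF20A, a kinesin of cytokinesis, lay between -6.37 and -5.50 on 7 arrays and at -3.29 in yak 4 at day +240 (0.31 ± 0.56, limma adjusted p = 0.833), seen above background on 1 array of day +180 and 2 of day +240. KIF2C, a kinesin of the mitotic spindle, was also highest there, at -0.38 (0.61 ± 0.33, limma adjusted p = 0.417). BUB1B, of the spindle checkpoint, was higher in all 4 yaks, from -5.89, -4.34, -5.07 and -5.06 to -5.05, -3.50, -4.29 and -2.76 (1.19 ± 0.44, limma adjusted p = 0.246). The probe of BUB1B was above background on 2 arrays of day +180 and 4 of day +240. MCM7, of the replication helicase, was lower in all 4 (-0.60 ± 0.24, limma adjusted p = 0.273). RSPO1, a secreted amplifier of Wnt signals, measured -4.58, -5.13, -5.16 and -3.15 and then -3.35, -4.31, -5.76 and -3.05 (0.39 ± 0.71, limma adjusted p = 0.833).

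Of 81 cytosolic ribosomal protein genes 1 was called, RPL10L, where 0.801% of all genes were called in either direction. In all 4 yaks 27 were higher and 0 lower (33.3% and 0%, against 10.7% and 5.9% of all genes). The list's median was 0.38, and 0.01 after quantile normalization of the arrays. RPL4 and RPL17, of the large subunit, were both higher in all 4 yaks. RPL4 went from 5.50, 5.57, 5.57 and 4.63 to 5.68, 6.21, 5.93 and 5.87 (0.61 ± 0.30, limma adjusted p = 0.378), and RPL17 had a difference of 0.68 ± 0.29 (limma adjusted p = 0.301). Of 75 mitochondrial ribosomal protein genes 1 was called, MRPS9, beside the same 0.801% of all genes, with a list median of 0.03. MRPL44 was higher in all 4 yaks (0.61 ± 0.20, limma adjusted p = 0.184). MRPL32 lay between -1.83 and -1.27 on 7 arrays and at 0.98 in yak 4 at day +180 (-0.87 ± 0.30, limma adjusted p = 0.205). Oxidative phosphorylation (78 genes), proteasome (38), secretory pathway (30), unfolded protein response (20) and aminoacyl-tRNA synthetase genes (20) gave 0 calls, with medians from 0.09 to 0.19 (limma, 1 to 4 genes of each at unadjusted p under 0.05). In each of these 5 lists yak 1 was negative and the other yaks were positive.

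The 4 animals differed in how far they moved. Past 2-fold in either direction lay 32.4% of all genes in yak 1, 24.6% in yak 2, 7.06% in yak 3 and 35.8% in yak 4. Yak 3 was the animal whose days resembled each other most (r = 0.982 across genes). Across genes the differences of yaks 1 and 4 correlated at -0.43 and those of yaks 2 and 4 at 0.47, as a description over genes measured on the same arrays.

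The late step was set against the step from day +60 to day +120, which has its own arrays. The 2 steps differed in 19 genes (0.0945%), 5 more positive and 14 more negative in the late step, and 6 of the 19 were also called in the late step itself. WDR63, of the dynein arms of cilia, had a late difference of 1.10 and an earlier one of -1.72. The test of the difference gave 2.82 (limma adjusted p = 0.00176), while the late step alone did not pass (limma adjusted p = 0.0616). CACNA2D1, a subunit of voltage-gated calcium channels, differed by -1.44 (limma adjusted p = 0.00982), with values of -4.74, -4.88, -4.98 and -4.95 at day +180 and -5.25, -5.77, -5.81 and -5.30 at day +240. After normexp background correction the sign for CACNA2D1 turned, to 0.41, and at day +60 its probe was above background on 1 of 4 arrays. SLC25A45, TMEM213, a membrane protein, and DSG3, a desmosomal cadherin, were also among the 5 leading genes of this test. Each of them was above background on 0 arrays of at least 1 of the 4 days, so no size is given. DSG3, above background on 1 array of day +180 and 0 of day +240, was lower in the late step itself by the test (limma adjusted p = 0.0202). Leaving out 1 yak at a time left 1 to 3 genes that differed between the steps. Leaving out the array of yak 4 at day +180 left 7, and leaving out that of yak 1 at day +240 gave 2097.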

How the data were processed

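Members, gene lists and tests were chosen with earlier results of these data known. The deposited value table holds log2 values of 34997 probes, made with GeneSpring 12 per the series' design text, which names JMP Genomics 7 for the authors' own models. Per the file headers the scanner files hold spot intensity from Feature Extraction 10.7.3.1, background subtracted, with that software's marks for spots well above background. Each table column equalled the log2 processed signal of 1 scanner file less its 75th percentile, with an SD of the difference of at most 0.00198 (next best file 0.385 or more), so the marks were taken from that file. All 36 matched files differ from the ones deposited under the column's sample.

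For each GeneName the probe with the highest mean was kept if well above background on 3 of 4 arrays of some day. Models were fitted to all 36 columns with limma 3.58.1 (R 4.3.3, statmod 1.5.0), day as fixed and yak as random effect (consensus correlation 0.0531), adjusted by Benjamini-Hochberg over all genes. Per the labels a yak number stands for 1 animal sampled at every day, so samples are paired. Deviations from the daily means correlated at 0.152 on average within a yak and at -0.0813 between yaks, and 32 of 36 arrays were closest to an array of their own yak. By the matched files each yak number sat at 1 position on every slide. Likeness within a yak and likeness within a slide position therefore cannot be told apart. Between the paired days the correlations were 0.0208, 0.276, 0.597 and 0.0474. The number of arrays, 4 a day, limits the precision. Scripts were tested on simulated data. Of 12956 symbols, 11466 are in a yak RefSeq gene table (assembly not used for coordinates). Named genes are the 10 largest rises and up to 10 largest falls with a symbol that were called, moved alike in all 4 yaks and were above background on 3 of 4 arrays of the higher day, 12 genes of milk and growth always shown, the leading members of the lists by p, and the 5 leading genes of the difference between steps. A named member of 1 list is not reported here. LTF was added after its values were seen. For probes above background on no array of a day, the brighter day's mean was set against the dimmest signal above background. The 23 alternatives cover the block, samples, filters, probe choice, scaling, background, labels, brightness, array weights and single yaks, arrays low in casein mRNA and the base composition trend; those of the last 2 kinds were chosen after seeing the data. Figures were drawn with matplotlib 3.10.9, numpy 2.4.6 and pandas 2.3.3 under Python 3.11.15.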

Additional observations from a re-analysis of the deposited data

Results flagged for a closer look

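In 12 of 154 groups of 4 arrays checked for the 77 named genes, 1 array lay far from the other 3, where chance alone gives about 1 in 20. Yak 4 was the array apart at day +240 for FUT7 (-2.62), KIF20A (-3.29), KIF2C (-0.38) and MYLPF (-0.72), each time the highest. At day +180 yak 4 was apart and lowest for PAEP (0.87) and RPL4 (4.63), and highest for MRPL32 (0.98). Yak 1 was apart for RAB39B at day +180, the highest at -0.89, and for LPL at day +240, the lowest at -1.34. Yak 2 was apart and highest for GLO1 at day +180 (1.13) and for OTOP3 at day +240 (-4.66), and yak 3 for S100A8 at day +180 (0.42).

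In 2 named genes above background on at least 1 array of each of the 4 days, the late step differed from the step between day +60 and day +120. This was by a test of the difference itself. The difference was 2.82 for WDR63 (limma adjusted p = 0.00176) and -1.44 for CACNA2D1 (limma adjusted p = 0.00982). The probe of CACNA2D1 was above background on 1 of 4 arrays of day +60, and its difference turned to 0.41 after normexp background correction.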

How the results depend on the processing

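The 161 calls became 0 with the 8 arrays alone (with and without the replicate block), 16 with array weights, 94 with probes above background on all 8 arrays, 46 after quantile normalization, 54 after median centring, 1 after normexp, 300 with array brightness as a covariate, 1002 under the scanner files' labels, 61 without yak 4 at day +180, 530 without yak 1 at day +240 and 3 to 133 with 1 yak left out. Yak as a fixed replicate block gave 160 calls, 146 of them shared, and no replicate block 119. The 19 genes differing between steps became 5 with no replicate block, 606 with array weights, 1 with probes above background throughout, 2 after quantile normalization, 4 after median centring, 1 after normexp, 182 with brightness, 253 under the scanner files' labels, 7 and 2097 without the 2 single arrays, and 1 to 3 with 1 yak left out; the fixed block gave 17, of which 14 were shared. The cause was not tested. Of 1796 values of named genes under the alternatives, 1504 kept their direction and side of the threshold, 205 kept the direction but were no longer called and 19 became called. For genes not called to begin with, staying uncalled counts as kept. The 19 called genes named here kept their call in 6 (EDNRB) to 17 (ZNHIT3) of 22 or 23 alternatives. Slide could not be fitted as a block, since by the value table's labels each slide holds 1 day.
Signs turned as follows. Under the scanner files' labels: RGR (-0.11), OTOP3 (-0.24), EDNRB (-0.0179), ZNHIT3 (0.14), XRN2 (0.69), KATNAL1 (0.53), ZFAND3 (0.20), GLO1 (0.24), CSN3 (-0.47), CSN1S2 (-0.74), LALBA (-0.13), LPL (-0.71), SCD (-0.40), FASN (-0.10), LPO (-2.92), LPIN3 (-0.18), FADS2 (0.19), ACLY (0.0672), ME1 (0.0890), UGP2 (-0.25), MCM7 (0.54), FN1 (1.12), COL6A1 (0.33), COL6A2 (0.28), TIMP3 (0.0600), CD3G (-0.11), PAX5 (-0.10), BLK (0.19), CSF1R (0.0409), C1QA (0.65), FCER1G (0.12), CIITA (0.85), ACTN3 (0.16), RPL17 (-0.43), RPL4 (-0.32), MRPL32 (0.51), WDR63 (-0.41), CACNA2D1 (0.62), TMEM213 (1.37), DSG3 (1.39); and for the difference between steps WDR63 (-1.05), CACNA2D1 (0.63). After normexp: the difference between steps of CACNA2D1 (0.41). With brightness as a covariate: SCD (-0.39), FASN (-0.39), LPO (-0.73). With the mean of all probes: ACLY (0.12). Without yak 4 at day +180: CSN1S1 (-0.37), CSN2 (-0.34), CSN3 (-0.31), LALBA (-0.13), PAEP (-0.15), SCD (-0.41), FASN (-0.14), LPO (-1.18). With 1 yak left out the difference ranged from -0.49 to 2.95 for CSN1S1, -0.47 to 3.00 for CSN2, -0.33 to 1.48 for CSN3, -0.16 to 3.33 for CSN1S2, -0.47 to 3.82 for LALBA, -0.14 to 2.27 for PAEP, -0.57 to 1.46 for SCD, -0.21 to 0.77 for FASN, -0.33 to 0.61 for KIF20A, -1.59 to 3.13 for LPO, -0.11 to 1.68 for KLRB1, -0.0753 to 1.16 for CD3G, -0.96 to 0.0751 for C1QA.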
